A study of Mus musculus and Homo sapiens with 12 samples.

Results

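The older primate LINE-1 (L1) subfamilies are the copies of L1PA6 to L1PA17 and of L1PB that earlier rounds of L1 retrotransposition left in the genome. Members were chosen by name alone from the human repeat table: rows of family L1 whose subfamily name starts with L1PA or L1PB, other than L1PA2, L1PA3, L1PA4 and L1PA5. This gave 85600 elements in 21 subfamilies, 2.18% of the 3919868 elements in the table. L1PA6, L1PA7, L1PA8 and L1PA8A contributed 25534 of them, L1PA10 to L1PA17 contributed 39228, and the L1PB names contributed 20838.

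The libraries came from K-562 cells, an established line from a human chronic myeloid leukaemia, either wild type (WT) or with TET2 knocked out (KO), with 3 libraries in each group and no further treatment. RNA recovered with the chromatin fraction (caRNA) was enriched for 5-methylcytosine (m5C) by immunoprecipitation and sequenced (meRIP–seq), to ask how loss of TET2, an enzyme that oxidises m5C, changes methylated repeat RNA. The paper lists WT and TET2 KO K-562 cells as gifts, and WT K-562 cells also from a cell bank. Which WT stock gave these libraries, and whether the KO is 1 clone, is not given in the sources used here. The KO labels misname the line in 1 field, while their titles read K562. The counts come from the immunoprecipitated fraction alone, so that each difference mixes RNA abundance with m5C enrichment, and neither fewer cells making an RNA nor less of it per cell can be told apart. Nothing in the labels says that the 3 libraries of a group came from separate cultures, so p-values measure the spread between these libraries.

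L1 elements copy themselves through an RNA that is reverse transcribed into the genome. In the L1PA lineage a higher number generally marks an older subfamily, from L1HS, which still moves in humans, to L1PA17, and the L1PB elements belong to another old primate lineage. Copies of this age no longer move. They have collected mutations, so that reads can be placed on single copies more often than in L1HS, but segmental duplication has also made recent, nearly identical copies of some of them, together with the genes around them.

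Of the 20 member elements with the highest counts, 15 had a nearly identical copy among the 20, either elsewhere on a chromosome or on an alternate contig of the same place. Among them, 3 L1PB1 copies on chromosome 17 were 98.8% to 98.9% identical over their whole length (hg38), and they are 3 of the 4 member elements with the highest counts on the assembled chromosomes. The other of the 4 was an L1PA15 copy on chromosome 7. Its first 300 bases, on the strand of the element, are shown with those of an L1PA12 element that is 1 of the 2 members with the lowest p among those higher in KO. Capitals mark CNGGG, a motif described at sites of the m5C writer NSUN2. It was searched on both strands and matches may overlap.
L1PA15 in LINC03009, chr7:76590245-76590544 (+): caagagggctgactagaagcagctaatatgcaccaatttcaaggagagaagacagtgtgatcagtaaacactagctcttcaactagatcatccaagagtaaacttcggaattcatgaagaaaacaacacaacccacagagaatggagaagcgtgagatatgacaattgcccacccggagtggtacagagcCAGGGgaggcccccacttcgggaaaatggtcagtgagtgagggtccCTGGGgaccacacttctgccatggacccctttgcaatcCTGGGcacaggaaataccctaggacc
L1PA12 on chromosome 2, chr2:97438691-97438990 (−): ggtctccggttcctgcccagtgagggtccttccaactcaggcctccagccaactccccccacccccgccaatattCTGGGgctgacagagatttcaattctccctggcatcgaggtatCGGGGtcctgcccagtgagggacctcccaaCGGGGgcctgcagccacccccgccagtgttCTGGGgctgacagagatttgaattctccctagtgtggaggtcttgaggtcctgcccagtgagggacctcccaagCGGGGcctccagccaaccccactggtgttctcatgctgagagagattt
The L1PA15 window held 3 matches and the L1PA12 window 5, with 2 and 6 on the other strand. Among all member elements of at least 300 bases, 58.2% held CNGGG in the same window on their own strand. The share was 68.1% in the young L1 subfamilies (L1HS and L1PA2 to L1PA5) and 44.8% in L1M, the ancient mammalian L1. The L1PA12 row spans 1105 bases, but its annotated match to the L1PA12 consensus runs from position 784 to 903 alone. Its GC content was 59.5%, against 39.4% over all members.

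Library totals over DNA, LINE, LTR and SINE repeats ranged from 498145 to 827341 estimated counts. Of the member elements, 14085 (16.5%) had counts in at least 1 library, against 62.2% of young L1 and 11.2% of L1M elements. In those totals, 3 elements of the DNA transposon FordPrefect held 7.21% to 9.84% in WT and 23.0% to 23.6% in KO, which lowers the share of every other repeat in KO.

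The share of the older elements overlapped between KO and WT, whereas that of young L1 did not. Members held 4.42%, 4.26% and 5.15% of the repeat counts in WT against 5.18%, 3.77% and 4.28% in KO (mean ± s.d., 4.61 ± 0.471% and 4.41 ± 0.715%, n = 3). The groups overlapped, with a log2 ratio of −0.07 for KO over WT. Young L1 held 22.2%, 19.7% and 23.2% in WT and 10.4%, 11.3% and 12.3% in KO, a log2 ratio of −0.94, and these groups did not overlap. L1M held 15.2 ± 0.253% and 14.4 ± 1.1%, which overlapped. Without the 3 FordPrefect elements the member log2 ratio was 0.18 and that of young L1 was −0.69. With 1 library left out in turn the member log2 ratio ran from −0.197 to 0.037, above 0 without WT replicate 3 (0.022) and without KO replicate 2 (0.037).

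The ratio of member to young L1 counts within a library does not depend on the other repeats. It was 0.199, 0.216 and 0.222 in WT and 0.499, 0.332 and 0.348 in KO. Every KO library lay above every WT library, with a log2 ratio of 0.89, and with any 1 library left out the log2 ratio stayed between 0.68 and 1.00. The ratio of member to L1M counts was 0.304 ± 0.0349 in WT and 0.307 ± 0.0575 in KO. This second ratio overlapped between groups, with a log2 ratio of 0.02. As sums over members, these ratios were not tested.

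Both lineages showed the same overlap. L1PA6 to L1PA17 held 3.40%, 3.67% and 3.59% in WT and 3.59%, 2.86% and 3.13% in KO (log2 ratio −0.15). L1PB held 1.02%, 0.590% and 1.56% in WT and 1.59%, 0.906% and 1.15% in KO (log2 ratio 0.20). WT replicate 2 was the lowest of the 6 libraries for L1PB, and without it the L1PB log2 ratio was −0.09.

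Of 573 repeat subfamilies tested with edgeR, 20 were members, and 0 of these were called at an adjusted p under 0.05, where 1.05% of all subfamilies were called. At an unadjusted p under 0.05 the member count was also 0, against 13.8% of all subfamilies. DESeq2 called 0 of the 20 as well, where it called 10.6% of all. It gave 1 member at an unadjusted p under 0.05, for which the share over all subfamilies is not given here. Over the 20 members the median log2 change was −0.18, and over all subfamilies tested it was 0.03, with 9 members above and 11 below 0. Adjusted p-values of the members ran from 0.409 to 0.986. The remaining subfamily, L1PBb, had counts in 26 of its 217 elements and was too low to test.

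These intervals were wide. Standard errors (SE) of the log2 change ran from 0.413 to 1.55, and in 16 of the 20 the SE exceeded the change itself. The 95% confidence interval (CI) included −1, a halving, in 16 members and included 1, a doubling, in 14, so that changes of that size were not excluded in most of them. The 5 young subfamilies lay between −1.18 and −0.84 with SE from 0.143 to 0.233. Across the numbered lineage, 11 of the 13 L1PA members lay above all 5 young subfamilies, and L1PA13 and L1PA17 did not.

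**Figure D1:**
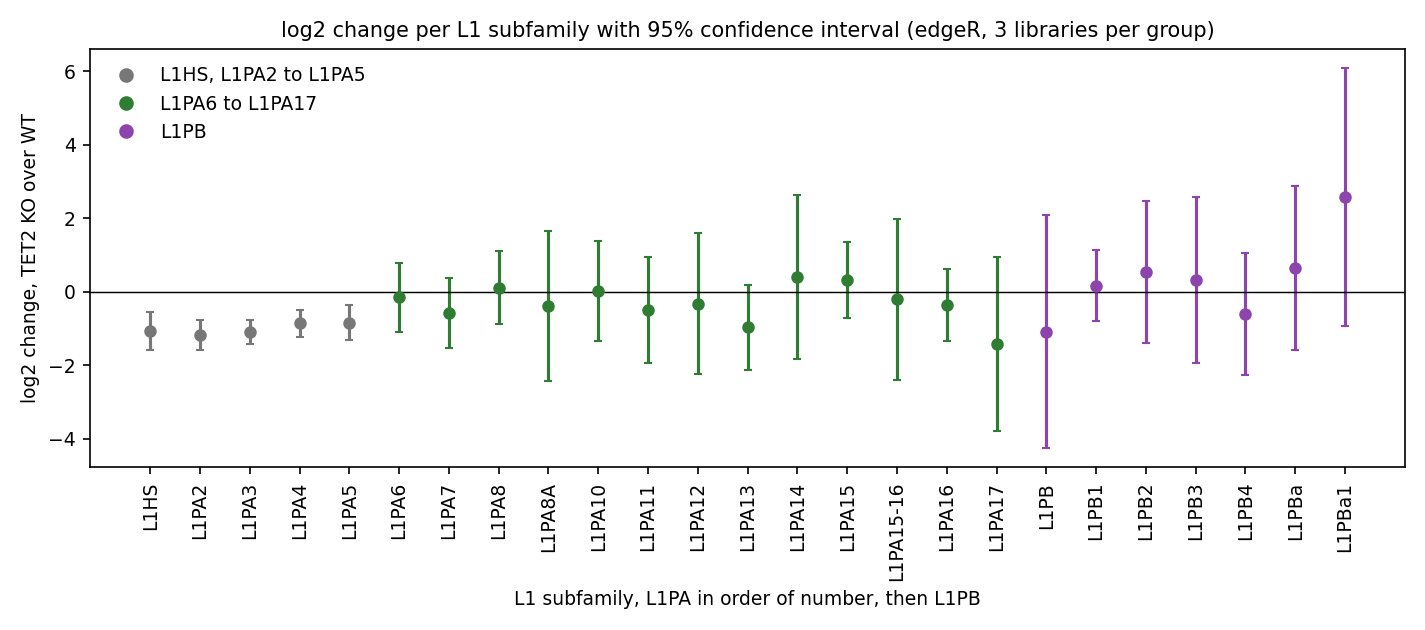
log2 change of KO over WT (y axis) for each L1 subfamily tested, with its 95% confidence interval from edgeR, 3 libraries per group. Young L1 (grey) lies between −1.18 and −0.84 with intervals below 0, whereas each of the L1PA6 to L1PA17 (green) and L1PB (purple) intervals includes 0.

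Values for single subfamilies are CPM, counts after TMM normalization on a scale common to all libraries. L1PA6 and L1PA7 held the most counts of the L1PA members. L1PA6 measured 9295, 6193 and 5901 CPM in WT against 10303, 3766 and 5249 in KO, with the highest and the lowest library both in KO. Its log2 change was −0.15 ± 0.413 (SE; 95% CI −1.08 to 0.79). L1PA7, with 5450, 5860 and 11657 CPM in WT against 5439, 6769 and 3085 in KO, changed by −0.59 ± 0.421. Its WT replicate 3 was about as high as the other 2 WT libraries together. L1PA8 measured 2875, 3367 and 2814 CPM in WT against 3251, 2126 and 4397 in KO (0.11 ± 0.441). L1PA8A was lower, with 688, 271 and 637 CPM in WT against 303, 502 and 416 in KO (−0.39 ± 0.897). In all 4 the KO libraries overlapped those of WT.

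In the older L1PA names, single libraries stood out. L1PA10 had 1059, 4796 and 2128 CPM in WT against 2554, 2195 and 3371 in KO (log2 change 0.02 ± 0.603). For L1PA11 the WT values were 1386, 2143 and 1039 CPM and the KO values 1355, 870 and 1004 (−0.50 ± 0.637). L1PA12 reached 4094 CPM in WT replicate 2 but 689 and 459 in the other WT libraries, and 1540, 1248 and 1398 in KO (−0.32 ± 0.850). In that WT library a single L1PA12 element, at chr2:97271348-97275128 (+), held 1227 estimated counts, and it had 192 and 1.00 in the other WT libraries. Without WT replicate 2 the L1PA12 log2 change was 1.33.

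L1PA13 was the member whose libraries separated by group, with 4795, 2205 and 2571 CPM in WT against 1596, 1369 and 1922 in KO. Every KO library lay below every WT library, as was also so for 6.63% of all subfamilies. The log2 change was −0.97 ± 0.515 (SE; 95% CI −2.13 to 0.20), with an edgeR adjusted p of 0.409, the lowest among the members. It was not called. The log2 change was −0.52 without WT replicate 1 and −0.36 on the assembled chromosomes alone, an alternative added after the data were seen.

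L1PA14 had 200, 1628 and 250 CPM in WT against 724, 1127 and 908 in KO (0.41 ± 0.984). Its log2 change was 2.06 without WT replicate 2 and 1.33 without elements counted mostly in 1 library. L1PA15 measured 3534, 3067 and 3787 CPM in WT against 2666, 3299 and 6969 in KO (0.32 ± 0.455), with the highest value in KO replicate 3. The composite name L1PA15-16 had 309, 165 and 277 CPM in WT against 389, 113 and 144 in KO (−0.21 ± 0.969). None of these 3 separated by group. L1PA16 had 2597, 3482 and 5045 CPM in WT against 2800, 3337 and 2466 in KO (−0.37 ± 0.432). L1PA17, the oldest numbered L1PA here, had 320, 818 and 4611 CPM in WT against 1139, 772 and 235 in KO (−1.42 ± 1.05). The L1PA17 difference rested on WT replicate 3, and without it the log2 change was 0.32.

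Within L1PB, L1PB1 held most of the counts, with 7276, 3230 and 9947 CPM in WT against 10207, 6704 and 6078 in KO (log2 change 0.17 ± 0.426; 95% CI −0.79 to 1.13). L1PB4 followed with 1664, 1887 and 6030 CPM in WT against 3545, 693 and 2078 in KO (−0.60 ± 0.732). Both overlapped between groups. L1PB3 measured 550, 260 and 430 CPM in WT against 279, 207 and 1070 in KO (0.33 ± 1.00). Rows named L1PB without a number measured 227, 35 and 1147 CPM in WT against 92, 512 and 54 in KO (−1.09 ± 1.40). In these low names single libraries again set the mean. L1PB2 had 93, 129 and 104 CPM in WT against 155, 98 and 227 in KO (0.54 ± 0.852). L1PBa had 125, 196 and 176 CPM in WT against 516, 133 and 137 in KO (0.65 ± 0.988).

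L1PBa1 had the change farthest from 0 among the members, 2.58 ± 1.55 (SE; 95% CI −0.93 to 6.08; edgeR adjusted p = 0.471). It measured 21, 377 and 10 CPM in WT against 275, 262 and 1938 in KO, so WT replicate 2 lay above 2 of the KO libraries. The log2 change was 0.97 without KO replicate 3 and 5.51 without WT replicate 2. Of its counts, 38.2% came from 1 element. This element, on chromosome 8 in the long non-coding RNA LINC03021, was at 0 in all 3 WT libraries and had 33.0, 95 and 722 estimated counts in KO. With a floor of 3 counts over the WT group, it was at least 205-fold higher in KO per repeat count. A copy on an alternate contig of chromosome 8 was also at 0 in WT and had 15.5, 68.0 and 624 counts in KO (at least 170-fold). Most of these counts came from KO replicate 3, and without it the bounds were 47.4-fold and 30.9-fold. Both elements were singled out after their values were seen, and at 0 in WT they could pass the filter only through KO. The rows of such a pair cannot be read as independent. Without them L1PBa1 had 14.2, 181 and 4.90 counts in WT against 190, 32.2 and 244 in KO.

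**Figure D2:**
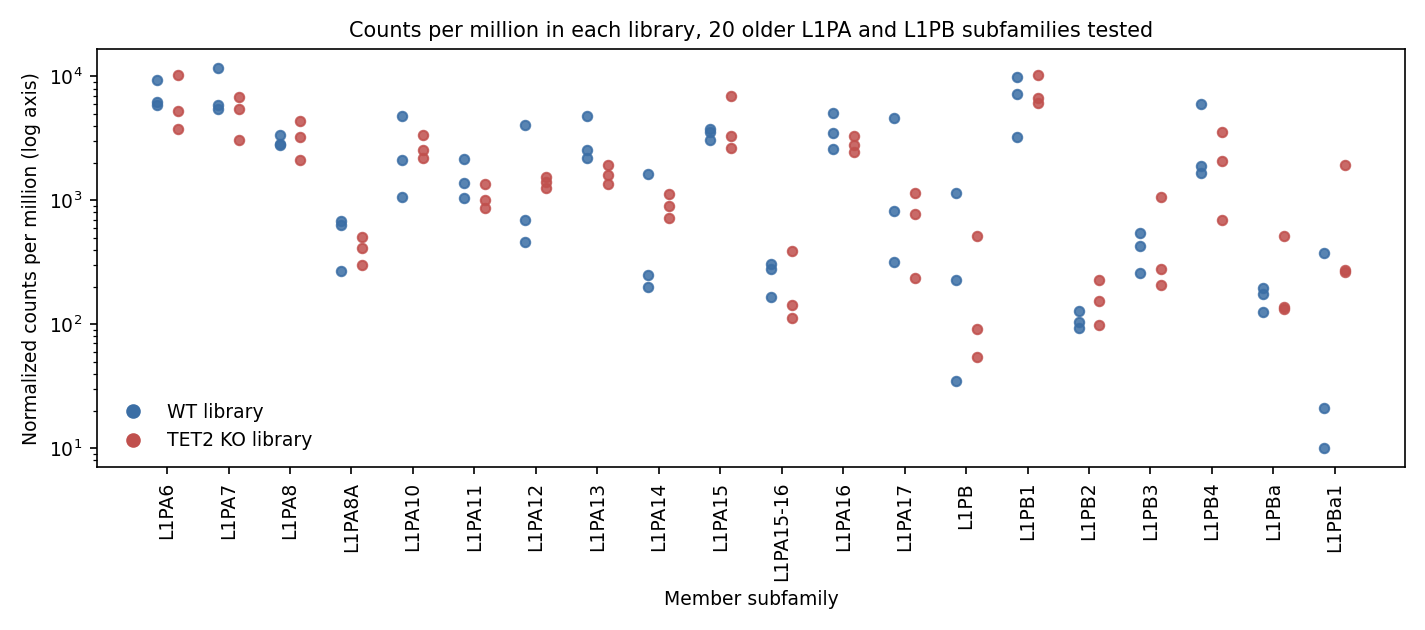
CPM (y axis, log scale) of the 20 member subfamilies tested, with a point for each WT (blue) and KO (red) library. The KO points lie below all WT points in L1PA13 alone, and L1PA12, L1PA14, L1PA17, L1PB and L1PBa1 spread over a wide range within WT.

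Per length of annotated sequence, the level fell from L1HS to L1PA6. In WT it was 11140 CPM per Mb for L1HS, 1089 for L1PA5 and 593 for L1PA6. Between L1PA7 and L1PA17 it ranged from 119 (L1PA15-16) to 944 (L1PA12), with no steady order. The L1PA12 level rested on WT replicate 2, and without that library it was 310 and the range ran from 66.8 (L1PA14) to 624 (L1PA17). Among the L1PB names it ran from 38.7 (L1PB2) to 575 (L1PB4), where L1PB4 was 320 without WT replicate 3. In KO, L1HS measured 5318 CPM per Mb, L1PA5 measured 609 and L1PA6 measured 535. The share of elements with counts fell in the same direction, from 81.8% in L1HS and 47.8% in L1PA5 to 43.3% in L1PA6 and 29.3% in L1PA7. Beyond L1PA7 it had no steady order, with 14.6% in L1PA8, 22.2% in L1PA15-16 and 8.83% in L1PA17.

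Few elements held much of the signal. The 20 member elements with the highest mean count carried 22.8% of all member counts, 15 of them had a copy of at least 98% identity among the 20, and 13 were at 0 in at least 1 library. Counts appeared in 1 library only for 7867 elements, and in all 6 for 628, which held 29.4% of member counts. Of the 1528 member elements with at least 10 counts, 37.9% had at least 90% of them in a single library, close to L1M (39.5%) and above young L1 (12.9%). The 10 highest elements of a library held 17.5% to 33.5% of its member counts. On alternate and unplaced contigs lay 3.70% of member elements and 20.3% of their counts, against 4.11% of the counts of young L1 and 22.8% of those of L1M. These contigs hold 3.6% of all elements of the table.

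The highest element was the L1PB1 copy at chr17:16776808-16781272 (+), which overlaps an exon of CCDC144A, a gene for a coiled-coil protein, on the same strand. It had 655, 28.5 and 1312 estimated counts in WT against 2120, 1665 and 1106 in KO. WT replicate 3 lay within the KO range and the other 2 WT libraries lay below it. The log2 change was 1.76 ± 1.12 (edgeR adjusted p = 0.767), and 2.66 without WT replicate 3. With library totals in place of TMM normalization it was 0.73. Its copy at chr17:20405365-20409832 (+), in an unnamed gene, had 569, 23.8 and 1543 counts in WT against 1347, 753 and 996 in KO, with overlap (0.97 ± 1.19; 2.16 without WT replicate 3 and 0.33 without WT replicate 2). The third copy, at chr17:18534410-18538874 (−) in CCDC144BP, a pseudogene of the same family, had 413, 14.8 and 81.3 counts in WT against 1244, 1168 and 289 in KO. Its groups overlapped too (2.86 ± 1.36; adjusted p = 0.710), with a log2 change of 4.55 without WT replicate 1 and 1.85 with library totals. All 3 copies were lowest in WT replicate 2, and chromosome 17, which has 1.66% of member elements on the assembled chromosomes, carried 0.672% of their counts in that library and 8.01% to 16.1% in the other 5.

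The L1PA15 element at chr7:76590245-76599236 (+) lies in an intron of the long non-coding RNA LINC03009, on its strand. It had 392, 190 and 0 counts in WT against 520, 842 and 1848 in KO. A copy on an alternate contig of chromosome 7 was 100% identical and had 236, 257 and 0 counts in WT against 371, 924 and 1591 in KO. In both, the estimated counts of every KO library, not scaled to library totals, lay above those of every WT library. The library totals were also higher in KO. Relative to these totals, the groups of the alternate-contig copy overlapped. Its WT replicate 2 had 257 of 498145 repeat counts, a larger share than the 371 of 821950 in KO replicate 1. Of the 20 highest member elements, this pair alone had unscaled counts that did not overlap between groups. The share of all elements with such a separation is not given here, so this count has no background to be read against. Neither was called, with log2 changes of 2.67 ± 1.88 and 2.70 ± 1.89 (edgeR adjusted p = 0.785 and 0.784). With 1 library left out in turn these ran from 2.11 to 3.51 and from 2.16 to 3.40. With library totals in place of TMM normalization they were lower, at 1.76 and 1.79. The rows of 2 identical copies cannot be read as independent.

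**Figure D3:**
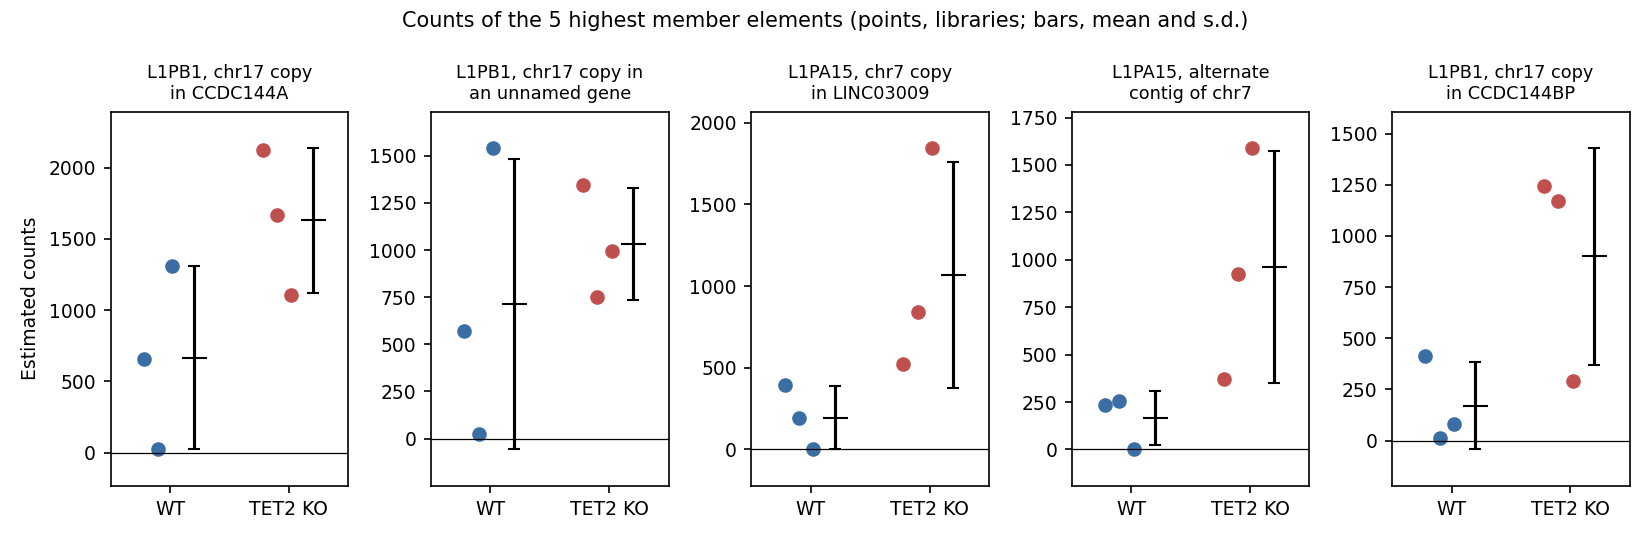
Estimated counts (y axis, separate scale in each panel) of the 5 member elements with the highest mean count, with a point for each library and bars for mean and s.d. WT replicate 2 is near 0 in the 3 L1PB1 copies of chromosome 17, and WT replicate 3 is at 0 in both L1PA15 copies.

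Among 3127 single elements tested with edgeR, 144 were members and 0 of these were called, against 0.0959% of all elements tested. The lowest adjusted p was 0.202. At an unadjusted p under 0.05 there were 8 members higher in KO (4.45% of all elements) and 2 lower (3.04% of all), together 10 of 144 against 7.48% of all. Over the 144 the median log2 change was 0.53, and over all elements it was 0.12. With library totals in place of TMM normalization these medians were −0.36 and −0.77, a shift of the whole table, and 59 rather than 93 of the 144 lay above 0. Members that passed the filter need not represent the others, since a high count in 1 group sufficed.

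DESeq2 called 8 of the 144 member elements, all higher in KO, where 5.56% of all elements were called and 4.03% were called higher. These elements were nearly empty in WT: no WT library had more than 7.37 counts and no KO library fewer than 10.9. With such WT counts all 8 could pass the filter only through KO. Besides the L1PBa1 pair, they included the L1PA16 element at chr1:148910623-148911440 (+), in an intron of PDE4DIP, which encodes a protein of the Golgi and centrosome. It had 0, 0.500 and 0 counts in WT against 32.8, 10.9 and 13.8 in KO. The L1PA12 element at chr2:97437886-97438990 (−), outside annotated genes, had 0, 0.500 and 0 counts in WT against 16.5, 116 and 29.5 in KO. The WT counts of both were under the floor of 3, so no fold is given. The remaining 4 were 2 of L1PA7, 1 of L1PA12 and 1 of L1PB4. An L1PA7 element at chr22:11929492-11930577 (−) went from 1.5, 3 and 0 counts in WT to 383, 186 and 98.6 in KO. The 8 were picked from these same counts, so their direction in edgeR is not a separate result. In edgeR all 8 lay above 0, with adjusted p from 0.202 to 0.523.

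The 2 tested members with the lowest p among those lower in KO were not called. The L1PB1 row at chr12:92313436-92326282 (−), in LINC02391, had 11.2, 18.2 and 41.4 counts in WT against 3.25, 3.93 and 8.65 in KO (log2 change −1.55 ± 0.621; edgeR adjusted p = 0.617). The L1PA7 row at chr2:185841387-185849192 (−) had 26.1, 7.95 and 18.7 counts in WT against 3.26, 3.37 and 8.15 in KO (−1.31 ± 0.550; adjusted p = 0.648). KO lay below WT in the first and overlapped it by 1 library in the second. Both rows span other repeats that have counts of their own, 342 over 2 repeats inside the first and 67.5 in 1 repeat inside the second, equal to the 67.5 of the L1PA7 row itself.

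Most member counts in genes lay in elements on the strand of the host gene. On the assembled chromosomes 52.3% of member elements lay in GENCODE genes, and 45.2% of these were on the strand of a gene. These same-strand elements held 75.0%, 73.9% and 70.6% of the counts in genes in WT and 74.5%, 81.7% and 76.8% in KO. In young L1, where 45.4% of elements in genes were on the gene strand, they held 46.3 ± 0.815% in WT and 43.0 ± 2.68% in KO. In L1M they held 69.0 ± 1.40% and 69.2 ± 2.80%. In each of the 6 libraries the share in members was higher than in young L1. Without the 5 highest elements of each group the share in members was 69.5 ± 4.56% and 69.1 ± 4.56%. Whether reads were counted by strand is not stated, so a same-strand element need not mean a same-strand read, and the counts of an element and of the transcript around it cannot be told apart.

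Within genes, counts differed by position. Elements in introns alone held 48.2%, 47.0% and 47.8% of member counts in WT against 36.9%, 39.3% and 40.5% in KO, so that every KO library lay below every WT library. The same held without the 5 highest elements (52.0 ± 1.98% and 42.4 ± 2.09%) and without elements counted mostly in 1 library (47.6 ± 2.83% and 38.3 ± 6.04%). In L1M the intron share was 54.0 ± 2.22% and 51.9 ± 1.01%, and in young L1 it was 54.3 ± 1.34% and 52.0 ± 1.74%, and both overlapped. Without elements counted mostly in 1 library, L1M still overlapped, whereas in young L1 every KO library lay below every WT library (54.1 ± 1.06% and 51.9 ± 0.924%). Elements that overlap an exon, 2.77% of members, held 14.4%, 7.33% and 20.1% in WT and 21.5%, 24.8% and 20.2% in KO. That separation rested on the 5 highest elements, and without them the exon share was 8.32 ± 0.889% and 11 ± 2.79%, which overlapped. Without elements counted mostly in 1 library it remained, at 16.8 ± 7.28% in WT and 27.4 ± 2.28% in KO. The split into exons, introns and strand was chosen after values had been seen, and was not tested.

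**Figure D4:**
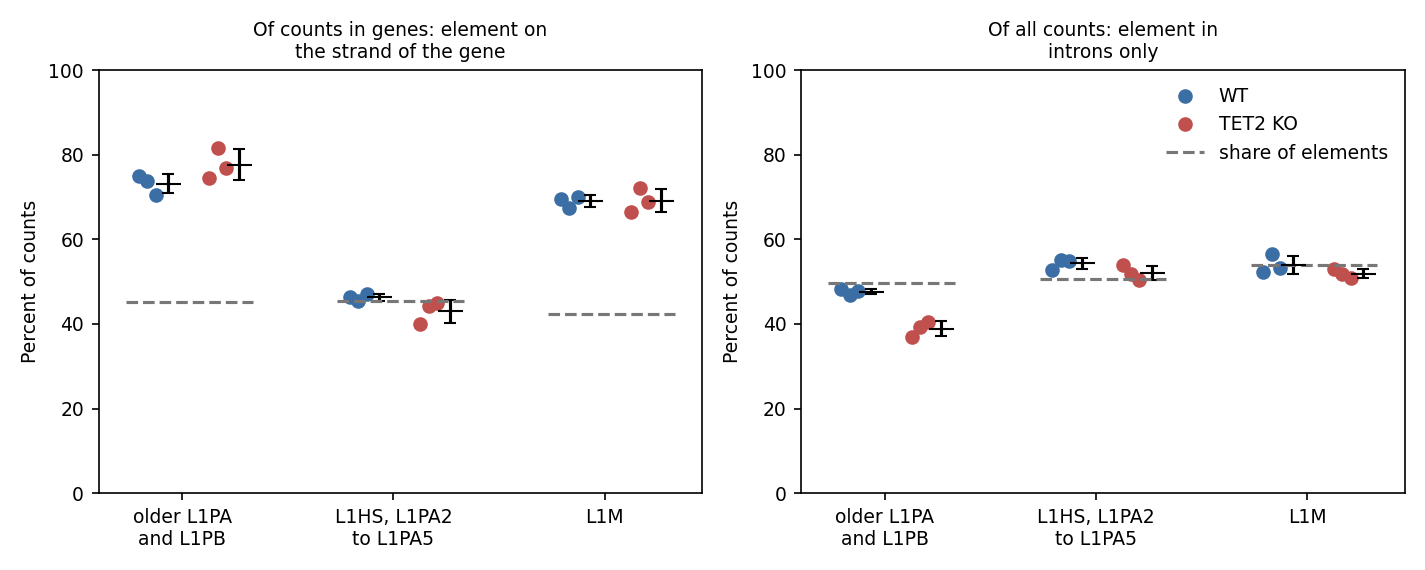
Left, percent of the counts in genes (y axis) that lie in elements on the strand of the gene. Right, percent of all counts in elements that lie in introns alone. Points are WT (blue) and KO (red) libraries, bars mean and s.d., and dashed lines the share of elements. On the left, members and L1M lie between 66.6% and 81.7% and young L1 between 39.9% and 47.0%. On the right, the KO libraries of the members lie between 36.9% and 40.5%, below the WT libraries.

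Gene bodies as a whole overlapped between groups over all elements. They held 61.6 ± 6.83% of member counts in WT against 61.1 ± 2.90% in KO. Without the 5 highest elements, those between genes held 40.4%, 42.1% and 36.5% in WT against 49.4%, 44.3% and 46.1% in KO. There every KO library lay above every WT library. Without elements counted mostly in 1 library the share between genes overlapped, at 35.6 ± 5.59% in WT and 34.3 ± 6.73% in KO. Elements of at least 5 kb were 11.1% of members by number. They held 44.4%, 43.4% and 37.1% of member counts in WT against 38.1%, 36.0% and 43.2% in KO, with overlap. Longer rows span more sequence, and these shares were not scaled to length. Fragments under 1 kb were 62.5% of members. They held 3.92%, 14.3% and 14% in WT and 16.4%, 14.6% and 16.1% in KO, a separation of less than 1 percentage point between the nearest libraries. On the assembled chromosomes alone these fragments overlapped between groups, at 10.6 ± 5.25% and 13.6 ± 2.67%.

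Pooled over all members, GC content and the density of CNGGG lay between those of the young and the ancient L1. GC content was 39.4%, against 40.8% in young L1 and 37.0% in L1M. CNGGG occurred 3.09 times per kb on the strand of the element, against 3.20 in young L1 and 2.69 in L1M. By lineage it fell from 3.63 in L1PA6 to L1PA8A to 2.95 in L1PA10 to L1PA17 and 2.60 in L1PB. Thus L1PA6 to L1PA8A lay above young L1, and L1PB lay below L1M. CG dinucleotides, at 6.43 per kb, were lower than in young L1 (9.02) and L1M (7.21). Of the non-zero member values, 22.0% were whole numbers to within 0.001, close to L1M (22.6%) and above young L1 (6.26%).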

How the data were processed

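Per the methods of the authors, adapters were cut with Trimmomatic 0.39, HISAT2 2.1.0 aligned the reads to hg38, the transcriptome and spike-ins, Picard took out duplicates, and featureCounts assigned what was left to repeat elements. The deposited values are the estimated counts per element. They are fractional, the counting options are not given in the sources used here, and the immunoprecipitated libraries have no input columns. The members, lists and comparisons here were chosen with earlier results of these data known.

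Counts of the DNA, LINE, LTR and SINE classes were summed per subfamily, or taken per element, and rounded. KO and WT were compared with the edgeR 4.0.16 quasi-likelihood test (filterByExpr, TMM, prior count 2, no block), two-sided, with Benjamini–Hochberg adjustment over all features tested and a call at an adjusted p under 0.05. SE is the absolute log2 change over the square root of F. DESeq2 1.42.0, other scalings, filters, element sets, a replicate block and leaving out each library were alternatives. Sums over members were not tested. The procedure was checked on simulated counts drawn independently for each feature, which do not hold the linked, nearly identical copies of these data.

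Every member subfamily tested with a mean of at least 50 counts was given by library. Named elements were up to 3 called in each direction, the 5 with the highest mean count and the 2 with the lowest p in each direction, and others are said to be chosen after their values were seen, as were the called DESeq2 elements and the L1PA12 and L1PBa1 elements beside their subfamilies. Sequences of the other named elements are not reported here. Sequences and positions are hg38, 1-based, with GENCODE 44 genes on the assembled chromosomes, which is not the release the authors used. Floors and counts cover counting error only. Coordinates of the table stayed within the reference contigs (0 exceptions). L1 rows merge fragments and can span other repeats.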

Additional observations from a re-analysis of the deposited data

How the results depend on the processing

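With 3 libraries per group, the SE of the member subfamilies were 0.413 or more, and a halving was not excluded in most of them. Why none was called was not tested. The 20 member subfamilies gave 0 calls under each alternative run, also with any 1 library left out, and their lowest adjusted p under any of these was 0.125. The 144 member elements gave 0 calls under each edgeR alternative and 8 with DESeq2. The cause of that difference was not tested. The replicate numbers that both groups share did not pair the libraries (correlations of deviations −0.051, 0.042 and −0.091, and not every library correlated best with its own number), and with a replicate block 0 subfamilies and 0 elements were called.

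Without the 10 highest elements of the table the log2 ratio of the member share was 0.145 and that of L1PA6 to L1PA17 was 0.089, and dropping the 3 FordPrefect elements gave 0.183 and 0.094. Of the 10 elements, 1 is a member. Without elements counted mostly in 1 library, 7 rather than 11 of the 13 L1PA members lay above all young subfamilies. The log2 ratio of members over young L1 counts ranged from 0.738 to 0.888 under the alternatives on elements.

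Directions of uncalled changes turned as follows. L1PA10 was −0.07 with DESeq2 size factors and with the DESeq2 test and −0.04 with a minimum of 10 counts. With the replicate block L1PA12 was 0.43 and L1PB3 was −0.01. Without elements counted mostly in 1 library L1PA17 was 0.19 and L1PB3 was −0.13, and on the assembled chromosomes alone, an alternative added after the data were seen, L1PB3 was −0.31. With library totals the L1PB1 copy at chr17:20405365-20409832 was −0.05. With 1 library left out in turn, the log2 change ranged from −0.63 to 0.15 for L1PA6, from −0.16 to 0.35 for L1PA8, from −0.31 to 0.78 for L1PA10, from −0.78 to 1.33 for L1PA12, from −0.20 to 0.59 for L1PA15, from −0.91 to 0.11 for L1PA15-16, from −1.91 to 0.32 for L1PA17, from −2.64 to 0.75 for L1PB, from −0.13 to 0.55 for L1PB1, from −0.75 to 0.71 for L1PB3, from −1.19 to 0.24 for L1PB4 and from −0.25 to 0.98 for L1PBa.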
